A study of Mus musculus with 6 samples.

Results

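The xenobiotic metabolism gene families of the mouse were described here in bulk ATAC-seq data from small intestinal organoids. The members were the 191 protein-coding genes, of 21887 in a RefSeq table of the GRCm38 genome, whose symbols place them among the cytochromes P450 (99 Cyp genes), the UDP-glucuronosyltransferases (22 Ugt genes), the glutathione S-transferases (23 Gst genes), the sulfotransferases (21 Sult genes) and the ABC transporters of the B, C and G families (10 Abcb, 10 Abcc and 6 Abcg genes). The choice went by symbol and used no measured value, but it was made with earlier results of these data known. The study compared organoids treated with RANKL, a cytokine known to turn intestinal epithelial cells into microfold (M) cells, which sample antigen from the gut lumen, with control organoids kept in ENR medium (EGF, Noggin and R-spondin 1), and each group had 3 libraries from separate differentiation experiments. Before RANKL (100 ng/ml, 6 days) the organoids spent 3 days in 3 µM CHIR99021, a GSK3 inhibitor, with 1.5 mM valproic acid, and then a day in ENR. Whether control organoids were pretreated in this way is not stated (their library names begin with CVENR, which is not explained), so effects of the pretreatment and of RANKL cannot be told apart. Both groups came from a single line, line26, labelled wild type and Lgr5GFPDTR/+ and derived from a female mouse. The Lgr5GFPDTR allele carries a GFP and diphtheria toxin receptor cassette in the stem cell gene Lgr5, so control organoids carry it too. All 6 libraries were made on day 6 from 50000 cells each.

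These families work in series. Cytochromes P450 of the lower numbered families oxidise drugs, dietary toxins and fatty acids, while the higher numbered ones mostly make or break down steroids, bile acids, retinoids, vitamin D and sterols. Glucuronosyltransferases, glutathione transferases and sulfotransferases then attach a sugar acid, glutathione or sulfate, and ABC transporters pump parent compounds and conjugates across the membrane. In the small intestine the system is best known from the absorptive enterocytes, which meet swallowed chemicals before the liver does. Many of the genes sit in clusters of near copies, so short reads of 38 bp can be hard to place among the Cyp2c, Cyp2j, Cyp3a, Ugt2b, Gstm and Gstp paralogs. Values of single genes in those clusters are uncertain for that reason.

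The promoters in which an accessibility change was called are the most direct link between these data and a gene. There were 11 called windows at promoters, and the promoters of 6 are shown. Each is the RefSeq GRCm38.p6 sequence from 250 bases before to 50 bases after a transcription start, read 5′ to 3′ on the strand of its gene. Accessibility rose with RANKL at Abcc2 (chr19:43782058-43782357, plus strand), Gstp3 (chr19:4059398-4059697, minus strand), Gstm5 (chr3:107895604-107895903, plus strand) and Cyp3a13 (chr5:137921570-137921869, minus strand), and fell at Cyp2c65 (chr19:39060756-39061055, plus strand) and Cyp2j9 (chr4:96591436-96591735, minus strand). Capitals mark matches, on either strand, to the letters of 6 motifs: TGACNNNGC (antioxidant response element core), TNGCGTG (aryl hydrocarbon receptor core), AGGTCA (nuclear receptor core), CAAAGTCCA (HNF4), TGANTCA (AP-1) and the NF-kB consensus. Gstp3 and Cyp2j9 held none of these letters in this window. Nor did the called promoters not printed, those of Abcb10, Gstm4, Cyp46a1, Cyp2d26 and Abcb4. The printed 6 thus include every called promoter with a match and only some of those without.
Abcc2: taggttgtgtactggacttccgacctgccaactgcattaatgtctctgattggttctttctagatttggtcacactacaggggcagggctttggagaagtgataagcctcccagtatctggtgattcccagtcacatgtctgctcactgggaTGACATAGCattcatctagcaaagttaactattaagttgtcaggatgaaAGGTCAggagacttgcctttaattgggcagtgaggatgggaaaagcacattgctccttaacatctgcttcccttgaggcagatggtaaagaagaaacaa
Gstp3: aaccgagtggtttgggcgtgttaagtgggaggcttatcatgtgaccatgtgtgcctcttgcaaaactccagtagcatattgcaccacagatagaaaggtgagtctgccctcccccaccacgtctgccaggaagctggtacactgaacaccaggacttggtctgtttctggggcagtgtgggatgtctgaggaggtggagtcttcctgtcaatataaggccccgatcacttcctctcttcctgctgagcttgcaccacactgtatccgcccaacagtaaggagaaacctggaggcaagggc
Gstm5: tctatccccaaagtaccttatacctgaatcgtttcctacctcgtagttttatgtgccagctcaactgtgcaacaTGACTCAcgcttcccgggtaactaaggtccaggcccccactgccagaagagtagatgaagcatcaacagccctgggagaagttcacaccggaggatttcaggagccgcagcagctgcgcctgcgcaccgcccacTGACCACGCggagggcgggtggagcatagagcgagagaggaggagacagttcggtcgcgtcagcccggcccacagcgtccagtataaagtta
Cyp3a13: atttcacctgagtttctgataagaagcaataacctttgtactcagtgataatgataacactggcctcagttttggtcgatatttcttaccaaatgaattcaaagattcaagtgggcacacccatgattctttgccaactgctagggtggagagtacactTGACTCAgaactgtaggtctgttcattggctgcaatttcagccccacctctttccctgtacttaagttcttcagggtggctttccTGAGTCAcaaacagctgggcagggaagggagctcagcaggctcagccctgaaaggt
Cyp2c65: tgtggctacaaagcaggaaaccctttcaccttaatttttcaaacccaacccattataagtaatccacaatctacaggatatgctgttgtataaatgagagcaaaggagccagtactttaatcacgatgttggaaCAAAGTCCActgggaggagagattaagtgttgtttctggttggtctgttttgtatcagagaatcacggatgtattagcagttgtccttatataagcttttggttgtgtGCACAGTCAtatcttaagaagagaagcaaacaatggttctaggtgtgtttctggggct
Cyp2j9: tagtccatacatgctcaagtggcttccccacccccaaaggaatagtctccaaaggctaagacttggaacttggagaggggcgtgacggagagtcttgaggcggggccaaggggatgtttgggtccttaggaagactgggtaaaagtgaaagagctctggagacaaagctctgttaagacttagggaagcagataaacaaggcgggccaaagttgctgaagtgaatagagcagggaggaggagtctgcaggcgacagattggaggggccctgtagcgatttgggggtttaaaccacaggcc
Positions of a match are those of its first base relative to the start. Abcc2 held the antioxidant response element core at -98 and the nuclear receptor core at -49, Gstm5 held an AP-1 match at -176 and the antioxidant core at -42, and Cyp3a13 held AP-1 matches at -91 and -6. Cyp2c65 held the HNF4 letters at -116 and the antioxidant core, on the opposite strand, at -8. A match is a description of letters, not a binding site. Of 21263 promoters of protein-coding genes, 13% held the antioxidant core, 14.7% the nuclear receptor core, 6.99% the AP-1 letters, 5.98% the aryl hydrocarbon receptor core, 1.44% the NF-kB letters and 0.451% the HNF4 letters. Of the 180 promoters of 153 members in the table, these shares were 8.89%, 22.8%, 10.6%, 3.33%, 1.11% and 6.67% in the same order. The 12 members with the HNF4 letters were Cyp2c40, Cyp2c65, Cyp2c67, Cyp2c68, Cyp2c69, Cyp2c70, Cyp3a11, Cyp3a16, Cyp3a41a, Cyp3a41b, Cyp8b1 and Sult1b1, most of them neighbours in 2 clusters with shared sequence.

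The measurement was the number of reads in 200-bp windows, given per gene as the sum over windows whose nearest protein-coding gene end is that of the gene and lies within 50 kb. Library totals were 322173 to 828445 counts in RANKL libraries and 455083 to 976881 in control libraries, so 3 counts were worth 3.07 to 9.31 CPM (counts scaled by library size) of the whole library. The CPM values below are scaled to the counts in the features that passed the filter, 255092 to 643101 in RANKL libraries and 357503 to 767548 in control libraries for gene sums, where 3 counts are worth somewhat more. A window may act on a gene other than its nearest. In bulk samples, fewer cells of a type and less accessibility per cell cannot be told apart. Of the 191 members, 146 had at least 1 window (339 windows in all), 45 had none, and 95 passed the edgeR filter on low counts and were tested, leaving 51 with too few counts. Calls rest on the quasi-likelihood test of edgeR with p-values adjusted by Benjamini-Hochberg over all 12465 genes tested and a threshold of 0.05, and log2 fold changes are RANKL over control, with their standard error (SE). Pearson's r between libraries, taken across windows that are no replicates of each other, was 0.687 to 0.772 within RANKL, 0.817 to 0.867 within controls and 0.444 to 0.54 between the groups.

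Accessibility rose with RANKL at 4 members (Cyp2d34, Gstp3, Gstm4 and Abcb10) and fell at 13 (Cyp2b19, Cyp2c65, Cyp2d26, Cyp2j9, Cyp3a11, Cyp3a25, Cyp4b1, Ugt1a1, Ugt2a3, Ugt2b38, Ugt8a, Gstt2 and Abcg8). Among all genes tested, 7.02% were called higher and 8.30% lower, against 4.21% and 13.7% of the 95 members tested. The median log2 fold change was -0.12 over the tested members and 0.01 over all tested genes, and 56.8% of members against 48.9% of all genes were below 0. In 13 tested members all RANKL libraries lay above all controls and in 19 they lay below; over all genes tested these shares were 14.5% and 16.1%. The Cyp and Ugt families, with 39 and 11 of the 95 tested members, held 11 of the 13 falls. The Gst and Abcb families, with 19 and 8 tested members, held 3 of the 4 rises. DESeq2 called 5 members higher and 6 lower, against 3.15% and 3.11% of all genes it tested, and 7 of these (Abcb10, Cyp2b19, Cyp2c65, Cyp2j9, Cyp4b1, Gstt2 and Ugt8a) were among the 17. Ugt8a, Cyp2j9 and Abcb10 were called in every setting tried in which they could be tested. With windows within 1 kb alone, 3 of 48 tested members were higher and 5 lower, against 2.70% and 3.70% of all genes tested in that way. No test of the difference between families was made, since genes of a family are not replicates.

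**Figure D1:**
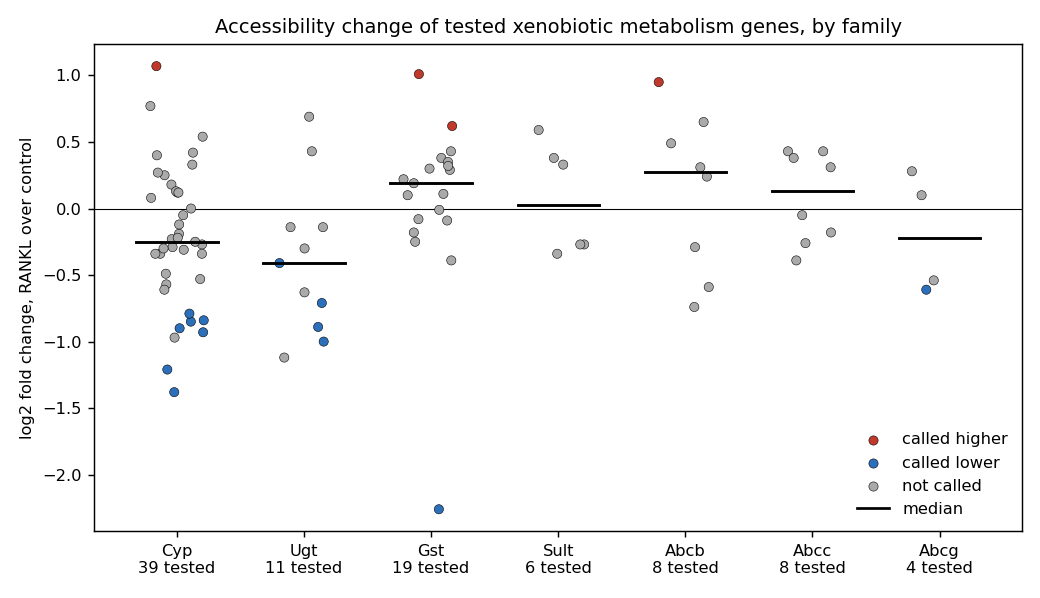
Fitted log2 fold change (RANKL over control, vertical axis) of each tested gene, by family, with the median as a bar and called genes in colour. The median lies at -0.25 for Cyp and -0.41 for Ugt genes (0.05 for Ugt genes in 2-kb counts), and at 0.19 for Gst and 0.28 for Abcb genes.

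The summed level over all cytochrome P450 genes with a window, for which no test was made, was 2997, 2829 and 2752 CPM in RANKL libraries, against 3249, 3271 and 3265 CPM in control libraries, 0.877 times the control mean with no overlap of the groups. The sum over all 15996 genes with a window did not overlap either. It was 1030310 to 1032973 CPM in RANKL and 1038425 to 1048437 CPM in control libraries, a ratio of 0.988. Lack of overlap in a sum therefore does not by itself set a family apart. Of 39 tested Cyp genes 7 fell (17.9%), 1 rose (2.56%) and 31 were not called, against 8.30% lower and 7.02% higher among all genes, and the median log2 fold change was -0.25. In 2-kb counts 12 of 67 tested Cyp genes were lower and 4 higher, against 12.3% and 9.38% of all genes, with a median of -0.08. All 8 calls were in families 1 to 4, the drug, fatty acid and eicosanoid enzymes, of which 30 were tested. Of the 9 tested genes of families 5 and above none was called; 1 of them had an unadjusted edgeR p under 0.05, lower with RANKL, and DESeq2 called 1 gene of these families higher.

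The Cyp3a cluster on chromosome 5 holds Cyp3a11, the main CYP3A drug oxidase of mouse liver and intestine and a target of the pregnane X receptor. Cyp3a11 (chr5:145854607-145879854) had 58.5, 46.4 and 53.7 CPM in RANKL libraries, against 88.8, 99.4 and 93.7 CPM in control libraries, 1.79-fold lower (log2 fold change -0.84 ± 0.24 SE, edgeR adjusted p = 0.006612). Its paralog Cyp3a25 had 62.4, 43.6 and 66.0 CPM in RANKL libraries, against 110, 103 and 85.2 CPM in control libraries (log2 fold change -0.79 ± 0.23 SE, edgeR adjusted p = 0.00699). In both genes every RANKL library lay below every control. Cyp3a59, next in the cluster, had 40.9 to 50.7 CPM in RANKL libraries and 63.4 to 75.8 CPM in control libraries and was not called (edgeR adjusted p = 0.1102). Over the 8 genes of the cluster the summed level was 211, 164 and 201 CPM in RANKL libraries and 306, 312 and 298 CPM in control libraries, a ratio of 0.628. Cyp3a13, a CYP3A gene that lies apart from the cluster, is described with its start window below. Its sum of 42.9 to 76.4 CPM in RANKL libraries and 34.1 to 42.3 CPM in control libraries was not called (edgeR adjusted p = 0.2513). Without RANKL replicate 2 or control replicate 1 the adjusted p of Cyp3a25 was 0.07737 and 0.05761.

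The Cyp2 enzymes, many of which oxidise arachidonic acid as well as drugs, held 4 of the falls and the single rise. Cyp2b19, known as an arachidonic acid epoxygenase of mouse keratinocytes, had 46.8, 87.3 and 93.7 CPM in RANKL libraries, against 137, 144 and 187 CPM in control libraries (log2 fold change -0.90 ± 0.19 SE, edgeR adjusted p = 0.0001306). Cyp2j9, an arachidonic acid hydroxylase, had 50.7, 87.3 and 81.4 CPM in RANKL libraries, against 134, 141 and 139 CPM in control libraries (log2 fold change -0.85 ± 0.20 SE, edgeR adjusted p = 0.0006058). RANKL replicate 1 was the lowest library in both genes, and their highest RANKL library was still below the lowest control. Cyp2c65, a CYP2C enzyme known from the intestine, had 35.1, 24.6 and 21.5 CPM in RANKL libraries, against 57.8, 58.8 and 62.5 CPM in control libraries (log2 fold change -1.21 ± 0.34 SE, edgeR adjusted p = 0.005578). Without RANKL replicate 3 its adjusted p was 0.07926. Cyp2c55, its neighbour and also an intestinal enzyme, was not called (82.9 to 137 CPM in RANKL and 111 to 128 CPM in control libraries), nor was Cyp2j6, an intestinal CYP2J enzyme (67.6 to 113 CPM in RANKL and 95.4 to 103 CPM in control libraries).

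Both directions were seen among the Cyp2d genes, mouse relatives of the human drug oxidase gene CYP2D6. Cyp2d26 had 19.5, 19.1 and 9.21 CPM in RANKL libraries, against 32.4, 43.1 and 39.8 CPM in control libraries (log2 fold change -1.38 ± 0.46 SE, edgeR adjusted p = 0.02496). Its sum passed the filter on low counts only through the control libraries, so the call is no independent sign of a change. Cyp2d34 had 54.6, 51.8 and 43.0 CPM in RANKL libraries, against 24.0, 20.9 and 25.6 CPM in control libraries (log2 fold change 1.07 ± 0.38 SE, edgeR adjusted p = 0.03757). The groups were apart in both genes, and the summed level of their cluster of 8 genes overlapped between the groups (76.8 to 95.5 CPM in RANKL and 67.7 to 96.7 CPM in control libraries). Both calls were near the threshold: with the experiment number as a replicate block the adjusted p was 0.05079 for Cyp2d26 and 0.05099 for Cyp2d34. Without RANKL replicate 3 or control replicate 2 it was 0.2222 and 0.1611 for Cyp2d26. For Cyp2d34 it was 0.06817 to 0.1284 when any library other than control replicate 3 was left out.

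Cyp4b1, which hydroxylates fatty acids and activates some plant and industrial toxins, was the only Cyp4 gene called. It had 85.9, 30.0 and 56.8 CPM in RANKL libraries, against 91.6, 119 and 105 CPM in control libraries (log2 fold change -0.93 ± 0.23 SE, edgeR adjusted p = 0.00124), and without RANKL replicate 2 the adjusted p was 0.0607. The cluster of 10 Cyp4a, Cyp4b and Cyp4x genes around it summed to 92.8 to 148 CPM in RANKL libraries and 186 to 199 CPM in control libraries, a ratio of 0.63. The Cyp4f fatty acid hydroxylases were not called, and Cyp4f14 among them had 21.8 to 35.3 CPM in RANKL libraries and 31.2 to 46.5 CPM in control libraries. Cyp2b10, a target of the constitutive androstane receptor, had 76.4 to 138 CPM in RANKL libraries and 124 to 150 CPM in control libraries and was not called.

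Enzymes of vitamin D, retinoids, sterols and bile acids showed no called change in these sums. Cyp24a1, which inactivates vitamin D hormone, had 78.0, 84.6 and 104 CPM in RANKL libraries, against 113, 120 and 116 CPM in control libraries (edgeR adjusted p = 0.2666). Cyp8b1, which sets the share of cholic acid among bile acids, had 19.5, 16.4 and 21.5 CPM in RANKL libraries, against 38.1, 43.1 and 31.2 CPM in control libraries (log2 fold change -0.97 ± 0.42 SE, edgeR adjusted p = 0.106). The groups did not overlap in either gene, as in 30.6% of all genes tested. Cyp27a1, the sterol hydroxylase of mitochondria, had 35.1, 54.6 and 55.3 CPM in RANKL libraries, against 60.6, 60.1 and 65.3 CPM in control libraries (edgeR adjusted p = 0.5328), again without overlap. The groups overlapped at Cyp51 of cholesterol synthesis and at Cyp26b1, which degrades retinoic acid (log2 fold changes 0.12 and -0.57, edgeR adjusted p = 0.7315 and 0.4592). The highest level in the family was at Cyp2s1, an epithelial enzyme outside the liver, with 175 to 187 CPM in RANKL libraries and 133 to 156 CPM in control libraries (edgeR adjusted p = 0.3021). Cyp1a1, the classic target of the aryl hydrocarbon receptor, had 5, 5 and 5 counts in RANKL libraries and 4, 11 and 2 in control libraries, too few to test. Cyp1b1, another such target, is described with its window below.

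Among the glucuronosyltransferases 4 of 11 tested genes were called lower (36.4%) and none higher, against 8.30% and 7.02% of all genes, and at an unadjusted edgeR p under 0.05 there were 6 lower and 1 higher. DESeq2 called 1 lower and none higher. The median log2 fold change of -0.41 was not kept in the 2-kb counts (0.05 over 16 tested Ugt genes, of which 3 were lower and 1 higher, and -0.12 with loess offsets, where 2 were lower). The summed level of the family was 761, 807 and 703 CPM in RANKL libraries, against 1025, 873 and 903 CPM in control libraries, a ratio of 0.811 with no overlap. Ugt8a, the ceramide galactosyltransferase that makes galactosylceramide and not a drug enzyme, had 101, 115 and 101 CPM in RANKL libraries, against 182, 149 and 199 CPM in control libraries (log2 fold change -0.71 ± 0.17 SE, edgeR adjusted p = 0.001038). Ugt2a3, a glucuronosyltransferase of bile acids, had 35.1, 30.0 and 35.3 CPM in RANKL libraries, against 81.8, 62.8 and 53.9 CPM in control libraries (log2 fold change -1.0 ± 0.30 SE, edgeR adjusted p = 0.009808). In both genes the RANKL libraries lay close together and below all controls, and without control replicate 1 the adjusted p of Ugt2a3 was 0.1225.

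Ugt1a1, which conjugates bilirubin, had the highest level of the family, with 172, 180 and 140 CPM in RANKL libraries, against 210, 191 and 247 CPM in control libraries (log2 fold change -0.41 ± 0.15 SE, edgeR adjusted p = 0.0451). Its single window (chr1:88213938-88214137), 2078 bp after the Ugt1a1 start, lies within the bodies of all 9 genes of the Ugt1 locus, which share their 3′ exons, so the value cannot be assigned to Ugt1a1 alone. Ugt2b38 had 27.3, 27.3 and 35.3 CPM in RANKL libraries, against 63.4, 54.9 and 53.9 CPM in control libraries (log2 fold change -0.89 ± 0.32 SE, edgeR adjusted p = 0.0416). With the replicate block the adjusted p was 0.07851 for Ugt1a1 and 0.05938 for Ugt2b38. Ugt2b1 moved the other way, with 78.0, 76.4 and 59.9 CPM in RANKL libraries and 46.5, 49.7 and 25.6 CPM in control libraries, and was called with the replicate block (edgeR adjusted p = 0.048) but not without it (0.07488). Ugt2b34, Ugt2b35, Ugt2b36, Ugt2b5 and Ugt2b37 were not called and had fitted log2 fold changes of -1.12 to -0.14. Leaving out RANKL replicate 3, control replicate 1 or control replicate 3 took the adjusted p of Ugt1a1 to 0.3751, 0.1067 and 0.1593, and any library left out took that of Ugt2b38 to 0.05045 to 0.1523.

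The summed level of the glutathione transferases was 1257, 1255 and 1238 CPM in RANKL libraries, against 1139, 1090 and 1053 CPM in control libraries, a ratio of 1.14 with no overlap. Of 19 tested genes 2 rose (10.5%), 1 fell (5.26%) and 16 were not called, against 7.02% higher and 8.30% lower among all genes, and the median log2 fold change was 0.19. In 2-kb counts 3 of 22 were higher and 2 lower, with a median of 0.09. Gstp3, of the pi class, had 78.0, 68.2 and 56.8 CPM in RANKL libraries, against 33.8, 30.1 and 34.1 CPM in control libraries, 2.02-fold higher (log2 fold change 1.01 ± 0.31 SE, edgeR adjusted p = 0.01247). Its neighbour Gstp2 had 70.6 to 74.1 CPM in RANKL libraries and 52.3 to 66.3 CPM in control libraries and was not called although its groups were apart (edgeR adjusted p = 0.4753), and Gstp1 had too few counts to test. The 3 Gstp genes together summed to 168, 161 and 166 CPM in RANKL libraries and 117, 98.1 and 102 CPM in control libraries, a ratio of 1.56. Without RANKL replicate 1 or control replicate 2 the adjusted p of Gstp3 was 0.05179 and 0.06245.

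The mu class is a cluster of 7 genes on chromosome 3, all tested. Gstm4 had 137, 84.6 and 90.6 CPM in RANKL libraries, against 66.3, 62.8 and 65.3 CPM in control libraries (log2 fold change 0.62 ± 0.22 SE, edgeR adjusted p = 0.04058). RANKL replicate 1 was the highest and the groups were apart. The call was lost with any library other than RANKL replicate 2 left out, with adjusted p of 0.05736 to 0.2407. The other 6 Gstm genes were not called and had log2 fold changes of -0.39 to 0.43. The 4 alpha class genes, which detoxify aldehydes of lipid peroxidation among other substrates, were not called and summed to 284 to 300 CPM in RANKL libraries and 231 to 279 CPM in control libraries. Gsto1 of the omega class and Gstk1 of mitochondria and peroxisomes had log2 fold changes of -0.01 and -0.18 and were not called.

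Gstt2, of the theta class, was the exception among the transferases and had the lowest log2 fold change of any called member. It has a single window, 3167 bp away from the gene body. RANKL libraries held 1, 3 and 3 counts there and control libraries 19, 21 and 10, which is 3.90, 8.18 and 4.61 CPM against 26.8, 27.5 and 28.4 CPM (log2 fold change -2.26 ± 0.65 SE, edgeR adjusted p = 0.006639). The summed counts, 7 in RANKL and 50 in control libraries, give a level 4.97-fold lower with an exact 95% interval of 2.24 to 13.0 that covers counting error only, and the gene passed the filter only through the control libraries. Without RANKL replicate 3 the adjusted p was 0.07786. Gstt1 and Gstt3 beside it were not called (log2 fold changes -0.25 and 0.32).

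No sulfotransferase was called of 6 tested. At an unadjusted edgeR p under 0.05 there were 1 higher (Sult2b1) and 1 lower (Sult1c2), and DESeq2 called 1 gene higher and none lower. Sult1c2, the highest of the family, had 191, 125 and 149 CPM in RANKL libraries, against 195, 204 and 168 CPM in control libraries (log2 fold change -0.34 ± 0.15 SE, edgeR adjusted p = 0.1182). Sult2b1, which sulfates cholesterol, had 148, 123 and 134 CPM in RANKL libraries, against 114, 92.8 and 99.4 CPM in control libraries (log2 fold change 0.38 ± 0.19 SE, edgeR adjusted p = 0.1549). Groups overlapped at Sult1c2 and were apart at Sult2b1. Sult1b1 and Sult1d1, phenol and amine sulfotransferases of the same cluster, each had a log2 fold change of -0.27. The Sult2a cluster of hydroxysteroid and bile acid sulfotransferases lay below the filter, with 35.1, 40.9 and 89.1 CPM summed over its genes in RANKL libraries and 24.0, 6.54 and 19.9 CPM in control libraries. Sult1a1 had no window.

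Among the transporters the ABCB family was higher as a sum, with 562, 565 and 544 CPM in RANKL libraries, against 485, 450 and 491 CPM in control libraries (ratio 1.17, no overlap). The intracellular transporters of mitochondria and lysosomes summed to 414, 445 and 389 CPM in RANKL libraries and 364, 322 and 304 CPM in control libraries, a ratio of 1.26, whereas the full transporters of the plasma membrane overlapped (120 to 155 CPM in RANKL and 121 to 187 CPM in control libraries). Abcb10, a mitochondrial transporter linked to haem synthesis, had 74.1, 87.3 and 78.3 CPM in RANKL libraries, against 43.7, 44.5 and 31.2 CPM in control libraries (log2 fold change 0.95 ± 0.27 SE, edgeR adjusted p = 0.005512). Abcb9, the lysosomal peptide transporter and the highest of the family, had 137 to 194 CPM in RANKL libraries and 116 to 152 CPM in control libraries (edgeR adjusted p = 0.1998). Abcb1b, a P-glycoprotein gene, was not called (15.6 to 36.9 CPM in RANKL and 25.4 to 62.5 CPM in control libraries), and its twin Abcb1a had 0 to 9 counts per library.

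No ABCC gene was called in its sum of 8 tested. There were 2 higher and 1 lower at an unadjusted edgeR p under 0.05, and DESeq2 called 1 higher (Abcc9, which had too few counts for the edgeR filter) and none lower. The summed level overlapped, with 977 to 1085 CPM in RANKL libraries and 990 to 1053 CPM in control libraries. Abcc3, a basolateral pump of glucuronides, had 133, 95.5 and 155 CPM in RANKL libraries, against 101, 103 and 96.5 CPM in control libraries (log2 fold change 0.38 ± 0.19 SE, edgeR adjusted p = 0.1652). Abcc1, a pump of glutathione conjugates, had 97.6, 70.9 and 70.6 CPM in RANKL libraries, against 91.6, 95.4 and 125 CPM in control libraries (log2 fold change -0.39 ± 0.22 SE, edgeR adjusted p = 0.2244). Both genes overlapped between the groups. Abcc2 and Abcc4, the apical conjugate pump and the pump of cyclic nucleotides and prostaglandins, changed in single windows and are described below.

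In the ABCG family, Abcg8 fell, with 54.6, 79.1 and 70.6 CPM in RANKL libraries, against 100, 112 and 108 CPM in control libraries (log2 fold change -0.61 ± 0.22 SE, edgeR adjusted p = 0.03666). Abcg5, with which Abcg8 forms the sterol efflux pump of enterocytes, was not called and had 183, 112 and 69.1 CPM in RANKL libraries, against 86.0, 92.8 and 90.9 CPM in control libraries. These neighbours overlap on the genome: with windows assigned to the nearest gene body in place of the nearest gene end, the fitted value of Abcg8 was -0.18 on the log2 scale (edgeR adjusted p = 0.758). Leaving out RANKL replicate 2 alone kept the call of Abcg8, and every other library left out took the adjusted p to 0.05409 to 0.1313. Abcg2, the apical drug and urate pump, had 81.9, 70.9 and 78.3 CPM in RANKL libraries, against 128, 112 and 85.2 CPM in control libraries (log2 fold change -0.54 ± 0.21 SE, edgeR adjusted p = 0.06077). Its RANKL libraries all lay below the controls, and the change was not called. Abcg1, a cholesterol exporter, overlapped (21.8 to 46.8 CPM in RANKL and 28.2 to 42.6 CPM in control libraries).

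**Figure D2:**
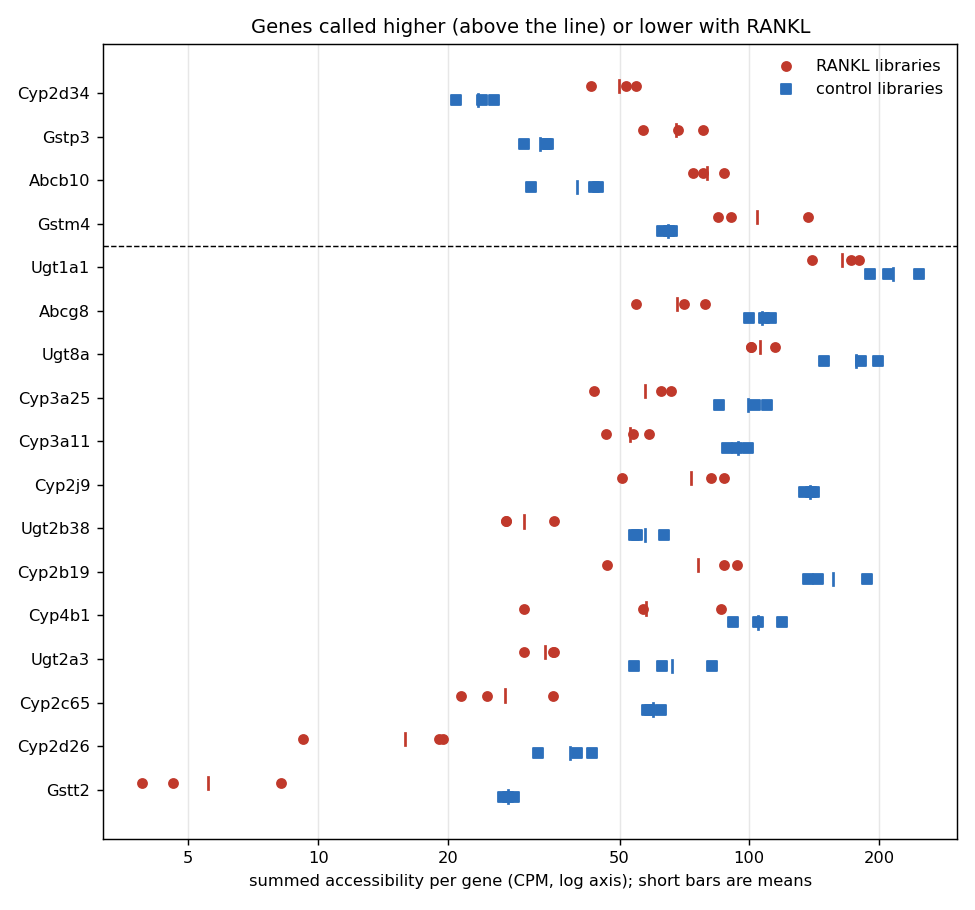
Summed accessibility per library (CPM, log axis) of the 17 called genes, with RANKL libraries as circles, control libraries as squares and short bars for the means. No called gene has overlapping groups, and the RANKL libraries of Cyp2j9 and Cyp4b1 are spread more widely than their controls (SD 19.6 and 27.9 against 3.75 and 13.7 CPM).

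Single windows were tested separately, because windows of a gene can move apart. Of 135 member windows tested 15 were called higher and 20 lower (edgeR, Benjamini-Hochberg adjustment over 21618 windows), which is 11.1% and 14.8%, against 10.0% and 10.0% of all tested windows (20.1% in either direction). Of all tested windows within 50 kb of a gene end, the limit that member windows also met, 9.49% were higher and 7.54% lower. The called member windows belonged to 31 members, of which 18 were not called in their sum. Cyp2j11, a further CYP2J gene, was the only member with windows called both ways. A window 33540 bp outside it (chr4:96382134-96382333) had 36.6, 46.2 and 37.7 CPM in RANKL libraries, against 1.43, 3.95 and 2.83 CPM in control libraries (log2 fold change 3.75 ± 0.64 SE, edgeR adjusted p = 2.076e-07). The counts were 48 over the RANKL libraries and 5 over the controls, a ratio of 14.5 with an exact 95% interval of 5.79 to 46.6 for counting error only, and the window passed the filter only through the RANKL libraries. A window 20422 bp beyond the other end of the gene had 28.5, 49.1 and 32.8 CPM in RANKL libraries, against 55.9, 63.1 and 76.4 CPM in control libraries (log2 fold change -0.79 ± 0.29 SE, edgeR adjusted p = 0.03647, and 0.07667 to 0.21 without RANKL replicate 1 or 3 or control replicate 2 or 3). The sum of the gene held both and showed neither (log2 fold change 0.18, edgeR adjusted p = 0.638).

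At transcription starts, 42 tested member windows overlapped a promoter of their gene, and 7 of them were called higher and 4 lower. The share over all windows at promoters was not computed. Of all tested windows within 1 kb of a gene end, a different set, 9.22% were called higher and 2.92% lower. The promoters printed above belong to 6 of these 11. At Abcc2 the window centred 164 bp before the start had 57.0, 34.6 and 44.2 CPM in RANKL libraries, against 17.2, 15.8 and 5.66 CPM in control libraries, 3.11-fold higher (log2 fold change 1.64 ± 0.42 SE, edgeR adjusted p = 0.00131). It covers the antioxidant core and shares 187 bases with the printed promoter. The Abcc2 window passed the filter on low counts only through the RANKL libraries, so its being called higher is no independent sign of a change. Abcc2 is the apical pump that returns glutathione and glucuronide conjugates to the gut lumen, and its sum over 7 windows was not called (edgeR adjusted p = 0.2661). At Gstp3 the start window had 81.4, 66.4 and 55.7 CPM in RANKL libraries, against 25.8, 26.3 and 31.1 CPM in control libraries (log2 fold change 1.25 ± 0.31 SE, edgeR adjusted p = 0.0009157). At Gstm5, a mu class gene whose sum was not called, it had 81.4, 34.6 and 68.8 CPM in RANKL libraries, against 34.4, 32.9 and 31.1 CPM in control libraries (log2 fold change 0.88 ± 0.30 SE, edgeR adjusted p = 0.02175). In Gstm5 the lowest RANKL library was only just above the highest control, whereas in Abcc2 and Gstp3 the groups were well apart.

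At Cyp3a13 the window 102 bp before a RefSeq start rose, with 44.7, 77.9 and 50.8 CPM in RANKL libraries, against 30.1, 34.2 and 28.3 CPM in control libraries (log2 fold change 0.88 ± 0.31 SE, edgeR adjusted p = 0.02939). Cyp3a11 of the same subfamily moved in the opposite direction, at a window inside the gene with 8.14, 17.3 and 13.1 CPM in RANKL libraries, against 43.0, 42.1 and 28.3 CPM in control libraries (log2 fold change -1.54 ± 0.44 SE, edgeR adjusted p = 0.005097). That Cyp3a11 window passed the filter on low counts only through the control libraries, so its call is no independent sign of a change. The start windows of Abcb10 and Gstm4 were called higher as well (log2 fold changes 1.21 and 0.92). So was that of Cyp46a1, the cholesterol hydroxylase known from neurons, with 93.6, 86.6 and 111 CPM in RANKL libraries, against 70.2, 63.1 and 65.1 CPM in control libraries (log2 fold change 0.59 ± 0.21 SE, edgeR adjusted p = 0.02724), a call lost with the replicate block (adjusted p = 0.07789). With each library left out in turn, the start windows of Abcc2 and Gstp3 kept their calls, that of Abcc2 with the limit of the filter given above. Gstm5 lost its call without RANKL replicate 1 or 3 or control replicate 1 or 2 (edgeR adjusted p of 0.05379 to 0.1978), Cyp3a13 without RANKL replicate 2 or any control (0.05646 to 0.2696) and Cyp46a1 without RANKL replicate 3 or any control (0.05119 to 0.2729). Gstm4 lost it without RANKL replicate 1 or 2 or control replicate 2 (0.05557 to 0.1322) and Abcb10 without RANKL replicate 2 (0.05027). In 2-kb counts around the same centres the log2 fold change was 0.10 at Cyp3a13 (edgeR adjusted p = 0.8163, and 0.3751 with loess offsets), 0.41 at Abcb10 (0.1867), 0.13 at Cyp46a1 (0.6281) and 0.39 at Gstm5 (0.2188), none of them called; with loess offsets Abcb10, Cyp46a1 and Gstm5 were called (0.03698, 0.03703 and 0.04501). Abcc2, Gstp3 and Gstm4 were called higher in the 2-kb counts too (1.24, 1.35 and 0.85).

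The falls at starts were at Cyp2c65, Cyp2j9, Cyp2d26 and Abcb4. The Cyp2c65 window had 28.5, 23.1 and 22.9 CPM in RANKL libraries, against 58.7, 48.7 and 62.2 CPM in control libraries (log2 fold change -1.19 ± 0.34 SE, edgeR adjusted p = 0.004631), and it covers the HNF4 letters of the printed promoter. The Cyp2j9 window had 16.3, 57.7 and 31.1 CPM in RANKL libraries, against 75.9, 85.5 and 82.0 CPM in control libraries (log2 fold change -1.17 ± 0.27 SE, edgeR adjusted p = 0.0001989). Abcb4, the phosphatidylcholine transporter of bile canaliculi, had 28.5, 11.5 and 8.19 CPM in RANKL libraries, against 22.9, 32.9 and 50.9 CPM in control libraries (log2 fold change -1.27 ± 0.47 SE, edgeR adjusted p = 0.03597, and 0.06113 with the replicate block). Its groups overlapped, while those of Cyp2c65 and Cyp2j9 did not. Cyp2c65 and Cyp2j9 kept their calls with each library left out, Abcb4 lost its call in 4 of these 6 fits (edgeR adjusted p of 0.1104 to 0.3087), without replicate 2 or 3 of either group, and Cyp2d26 without RANKL replicate 3 or control replicate 2 (0.2089 at most). Of the 12 members with the HNF4 letters 6 were tested in their sums, all 6 had a fitted change below 0 (48.9% of all tested genes did) and 2 were called lower (Cyp2c65 and Cyp3a11). Another of the 6, Cyp3a41b, had a log2 fold change of -0.12 ± 0.57 SE in 200 bp and was called higher in 2-kb counts (1.06, edgeR adjusted p = 0.001227, and 0.98 and 0.003748 with loess offsets). These members were looked up after their values had been seen, and their sequences are related.

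**Figure D3:**
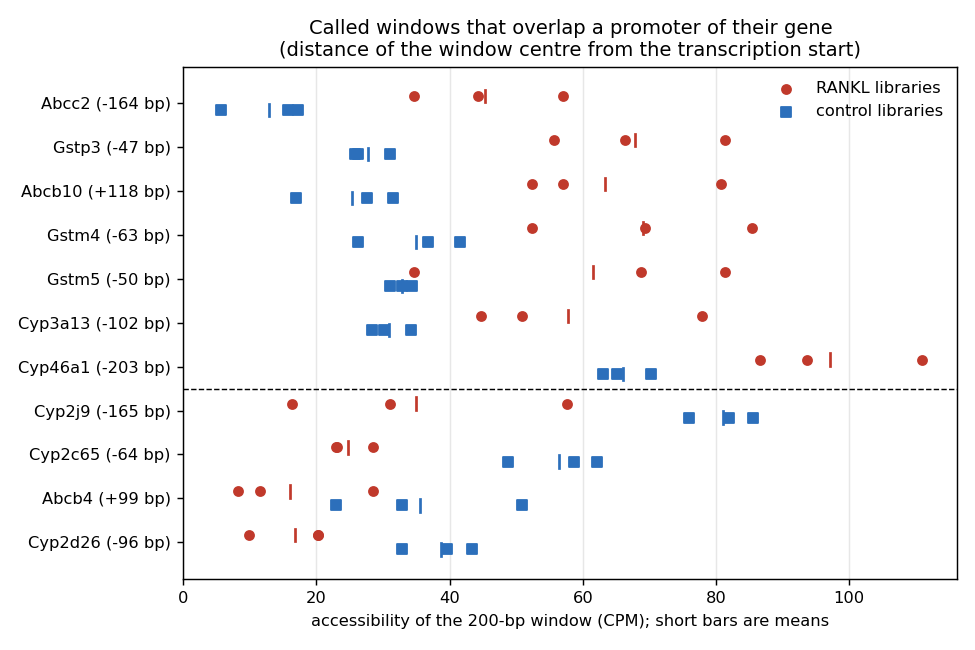
Accessibility per library (CPM) of the 11 called windows that overlap a promoter of their gene, with the distance of the window centre from the start; circles are RANKL libraries, squares control libraries and short bars means. Windows above the dashed line were called higher with RANKL, those below it lower, and Abcb4 is the only one in which the groups overlap.

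By position, member windows were set against all tested windows within 50 kb of a gene end, the limit that members also met. More than 1 kb outside a gene, 3 of 44 were called higher and 9 lower (20.5%), against 10.0% and 12.2% of that set. With windows beyond 50 kb included, the shares of all tested windows there were 11% and 16.4%. More than 1 kb inside a gene, 5 of 42 were higher and 5 lower (11.9% each), against 9.42% and 10.7%. Within 1 kb of a gene end, 7 of 49 were higher and 6 lower (12.2%), against 9.22% and 2.92%. The Abcc4 locus, with 14 windows the most of any member, had 3 called lower. At the one 40129 bp inside the gene (chr14:118667628-118667827) RANKL libraries had 24.4, 40.4 and 32.8 CPM, against 64.4, 69.7 and 84.9 CPM in control libraries (log2 fold change -1.09 ± 0.29 SE, edgeR adjusted p = 0.001668). The sum over Abcc4 was 324, 428 and 295 CPM in RANKL libraries and 386, 400 and 471 CPM in control libraries and was not called (edgeR adjusted p = 0.09025). A further fall lay 36212 bp outside Ugt2a3, where RANKL libraries had 24.4, 23.1 and 1.64 CPM and control libraries 65.9, 44.7 and 36.8 CPM (log2 fold change -1.95 ± 0.41 SE, edgeR adjusted p = 6.09e-05). RANKL replicate 3 had the lowest value there, and the call was lost without it (edgeR adjusted p = 0.07166) and in DESeq2 (adjusted p = 0.2691). The windows of Abcc4 at 8714 bp outside and 18973 bp inside the gene lost their calls with 3 and 4 of the 6 libraries left out in turn (edgeR adjusted p of 0.05976 to 0.1797), and the 18973-bp one also with the replicate block (0.07723).

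Other members had a called window without a called sum. Sult6b2, a sulfotransferase, had a window inside the gene with 24.4, 46.2 and 44.2 CPM in RANKL libraries, against 11.5, 7.89 and 22.6 CPM in control libraries (log2 fold change 1.66 ± 0.45 SE, edgeR adjusted p = 0.002527). Abcc12, another ABCC gene, had one with 24.4, 40.4 and 21.3 CPM in RANKL libraries, against 11.5, 9.21 and 5.66 CPM in control libraries (log2 fold change 1.57 ± 0.55 SE, edgeR adjusted p = 0.0262). The Abcc12 window passed the filter on low counts only through the RANKL libraries. For the Sult6b2 window, control replicate 3 alone of the controls met the filter. These calls of Sult6b2 and Abcc12 are therefore no independent sign of a change. Cyp1b1, a target of the aryl hydrocarbon receptor, fell at a window 805 bp before its start, with 93.6, 66.4 and 55.7 CPM in RANKL libraries, against 122, 94.7 and 133 CPM in control libraries (log2 fold change -0.75 ± 0.20 SE, edgeR adjusted p = 0.002442). In none of these 3 windows did the groups overlap, as in 33.4% of all tested windows. The Cyp1b1 call was lost without RANKL replicate 3 (edgeR adjusted p = 0.1284) and that of Abcc12 without RANKL replicate 2 or control replicate 3 (0.07551 and 0.2638 as the lowest and highest). Windows of Abcg5, Abcb8, Abcb9, Abcc8 and Ugt2b1 were also called higher, with log2 fold changes of 0.55 to 1.28. Windows of Cyp2j5, Ugt2b34, Ugt2b36 and Sult1e1, the oestrogen sulfotransferase, were called lower, with log2 fold changes of -1.25 to -0.88. Among these 4 falls the groups were apart at Ugt2b34 alone. With the replicate block the calls at Abcb9, Abcc8, Cyp2j5, Ugt2b34, Ugt2b36 and Sult1e1 were lost (adjusted p = 0.1024, 0.07982, 0.1812, 0.05685, 0.1603 and 0.3056). Each of these 9 windows also lost its call with 2 to 4 single libraries left out (edgeR adjusted p of 0.05359 to 0.5244).

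**Figure D4:**
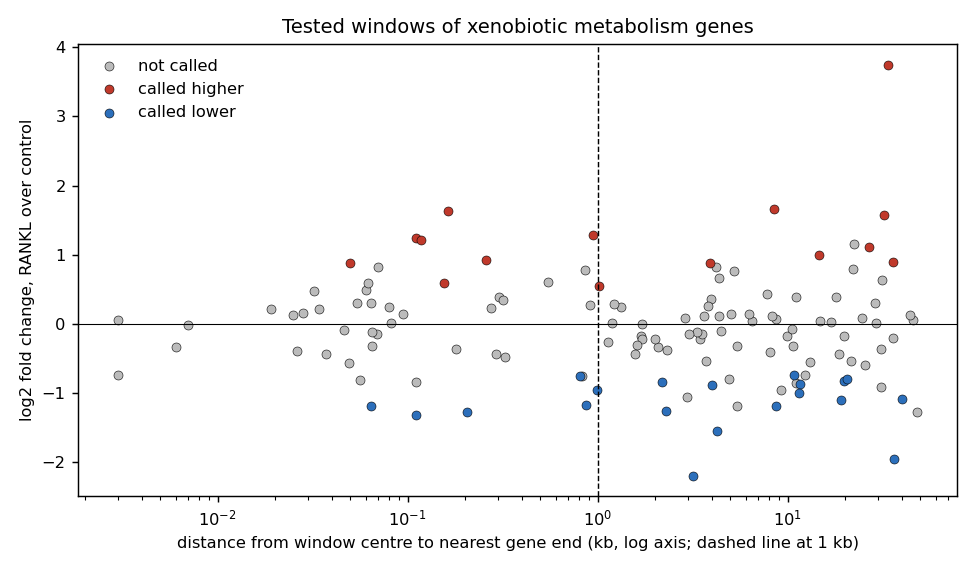
Fitted log2 fold change (RANKL over control) of the 135 tested member windows against the distance of the window centre from the nearest gene end (kb, log axis); the dashed line is at 1 kb. The highest point is the Cyp2j11 window at 33540 bp, with a log2 fold change of 3.75, and 9 of the 20 falls lie more than 1 kb outside a gene.

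Counts in 2-kb windows around the same centres, recovered from the second deposited table, are higher and let 140 members be tested. Of these 16 were called higher and 22 lower, against 9.38% and 12.3% of all genes tested at that width. With loess offsets on these counts 18 were higher and 17 lower, against 9.58% and 9.16%. All 4 rises of the narrow windows and 12 of the 13 falls were called again, and Ugt2b38 was not (log2 fold change -0.37, edgeR adjusted p = 0.2249). Members too low for a test in 200 bp could be tested here. Cyp2b23 had 32, 24 and 33 counts in RANKL libraries, against 6, 11 and 0 counts in control libraries, and Sult2a4, a hydroxysteroid sulfotransferase, had 14, 34 and 77 counts in RANKL libraries, against 14, 11 and 4 counts in control libraries. Cyp2b23 passed the filter on low counts only through the RANKL libraries. For Sult2a4, control replicate 1 alone of the controls met the filter. That Cyp2b23 and Sult2a4 were called higher is therefore no independent sign of a change. Cyp7b1, an oxysterol hydroxylase, had 28.3, 63.3 and 38.7 CPM in RANKL libraries, against 8.80, 16 and 13 CPM in control libraries (log2 fold change 1.74 ± 0.30 SE, edgeR adjusted p = 3.946e-06). All its RANKL libraries lay above all controls. Abcc8 and Abcc9, regulatory subunits of potassium channels, were called higher too (log2 fold changes 0.84 and 1.03), as were Abcc2 (0.45), Gsta4 (0.44) and Cyp3a41b (1.06). Sult1b1 (-0.59), Abcb4 (-0.59), Cyp2c68 (-0.67) and Cyp4a12a (-0.99) were called lower at this width.

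**Figure D5:**
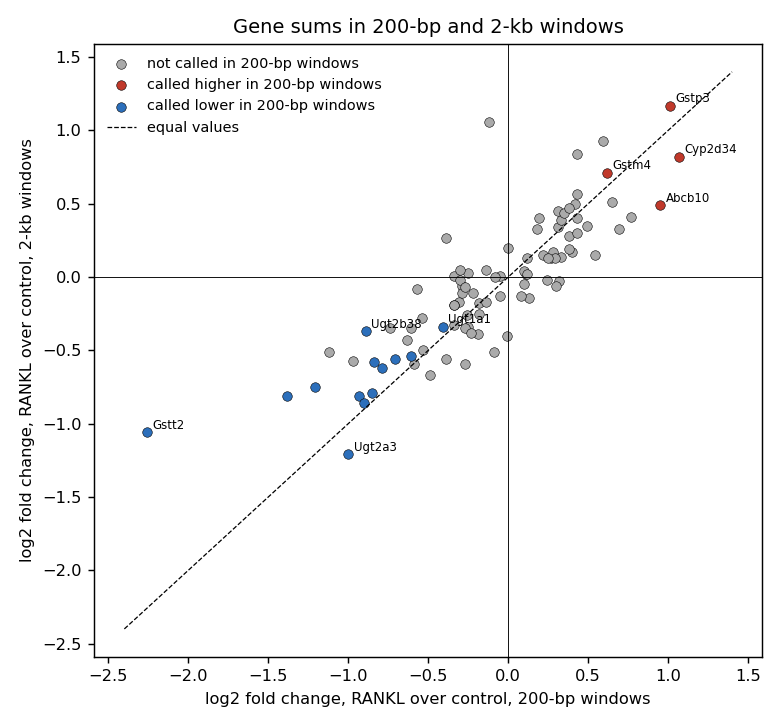
Log2 fold change (RANKL over control) of gene sums in 2-kb windows against that in 200-bp windows, for members tested in both; the dashed line marks equal values. Genes called in 200-bp windows keep their side of 0, and Gstt2 lies at -2.26 in 200 bp and -1.06 in 2 kb.

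The regulators and partner enzymes of the pathway were read from the same fit. Of 15 tested regulators 3 were called higher (20%) and 1 lower (6.67%), against 7.02% and 8.30% of all genes; DESeq2 called 1 higher and 1 lower. Nr1h4, the bile acid receptor, had 180, 218 and 226 CPM in RANKL libraries, against 324, 290 and 295 CPM in control libraries (log2 fold change -0.52 ± 0.13 SE, edgeR adjusted p = 0.001478). Arnt, the partner of the aryl hydrocarbon receptor, had 78.0, 109 and 76.8 CPM in RANKL libraries, against 36.7, 43.1 and 65.3 CPM in control libraries (log2 fold change 0.93 ± 0.25 SE, edgeR adjusted p = 0.004004). Keap1, the sensor that holds back the oxidative stress factor encoded by Nfe2l2, and Mafg, a binding partner of that factor, had log2 fold changes of 0.78 and 1.08 (edgeR adjusted p = 0.01237 and 0.04797), and lost their calls with the replicate block (0.05089 and 0.05452). Without RANKL replicate 2 or control replicate 1 the adjusted p of Arnt was 0.0795 and 0.06742. Keap1 lost its call without RANKL replicate 3 (0.1591), control replicate 1 (0.07506) or control replicate 2 (0.09297), and Mafg without any 1 library (0.07634 to 0.1407).

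Of 58 tested partner enzymes 3 rose (5.17%) and 8 fell (13.8%), against 7.02% and 8.30% of all genes, and their summed level was 4819 to 5292 CPM in RANKL libraries and 5315 to 5596 CPM in control libraries. Ugp2, which makes the UDP-glucose from which glucuronosyltransferases draw their sugar, had 50.7, 104 and 73.7 CPM in RANKL libraries, against 168, 157 and 207 CPM in control libraries (log2 fold change -1.15 ± 0.19 SE, edgeR adjusted p = 1.521e-07). Retinaldehyde and aldehyde dehydrogenases went both ways: Aldh1a1, Aldh1a7 and Aldh1b1 fell (log2 fold changes -0.80, -1.68 and -1.14) and mitochondrial Aldh2 rose (1.14), with 129, 112 and 138 CPM in RANKL libraries, against 57.8, 60.1 and 53.9 CPM in control libraries (edgeR adjusted p = 8.203e-06). Adh7, an alcohol and retinol dehydrogenase, and Ephx1, the microsomal epoxide hydrolase, rose (0.93 and 0.83). The aldo-keto reductases Akr1c13 and Akr1c19, the monooxygenase Fmo1 and the xanthine dehydrogenase Xdh fell (-0.86, -0.43, -0.90 and -0.49). With the replicate block Akr1c19 and Fmo1 lost their calls (edgeR adjusted p = 0.07805 and 0.06294). Without RANKL replicate 3 the adjusted p of Aldh1b1 was 0.06316 and that of Xdh 0.1581. Without control replicate 2 that of Aldh1b1 was 0.05323, and without control replicate 1 that of Xdh was 0.05812. Fmo1 lost its call without replicate 1 or 2 of either group (0.1009 to 0.2141), and Akr1c19 without any library other than RANKL replicate 1 (0.07569 to 0.1747). The groups did not overlap in these genes except at Ephx1.

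Markers of cell types were read from the same fit, in which 7.02% of all genes were higher and 8.30% lower. Of 12 tested M cell markers 6 were called higher and 1 lower, with a summed level of 1089 to 1290 CPM in RANKL libraries and 770 to 878 CPM in control libraries. Among the 6, Sox8, H2-M2 and Msln passed the filter on low counts only through the RANKL libraries. For Marcksl1, control replicate 3 alone of the controls met the filter. The share of M cell markers called higher is therefore no independent sign of a change. Of 10 stem cell markers 5 were lower (1182 to 1354 CPM in RANKL and 1593 to 1807 CPM in control libraries), and of 9 goblet cell markers 3 were lower (547 to 640 CPM in RANKL and 781 to 888 CPM in control libraries). Of 13 enterocyte markers 1 was higher and 2 lower (1159 to 1309 CPM in RANKL and 1340 to 1401 CPM in control libraries), and of 10 general epithelial markers 1 was lower (1275 to 1399 and 1473 to 1533 CPM). Haematopoietic markers, of which 5 of 12 were tested and 1 was higher, summed to 199 to 284 CPM in RANKL libraries and 180 to 199 CPM in control libraries. Mesenchymal and endothelial markers, of which 7 of 11 were tested and 2 were higher, summed to 371 to 407 CPM in RANKL libraries and 267 to 374 CPM in control libraries. Of 6 tuft cell markers 1 was higher and 2 lower (314 to 327 CPM in RANKL and 358 to 430 CPM in control libraries), of 4 Paneth cell markers 1 was higher and 1 lower (150 to 219 and 175 to 201 CPM), and of 3 enteroendocrine markers 1 was higher (175 to 187 and 131 to 166 CPM). None of 6 tested liver genes of hepatocytes was called by edgeR at the adjusted threshold; 1 was lower at an unadjusted p under 0.05, and DESeq2 called none (611 to 671 CPM in RANKL and 597 to 633 CPM in control libraries). The summed levels of Paneth, mesenchymal and endothelial, and liver genes overlapped between the groups. In none of these lists was a marker with a window at 0 in every library. The Paneth marker called higher, Guca2b, passed the filter only through the RANKL libraries. Retnlb, a goblet marker called lower, passed it only through the control libraries. At Gip, the enteroendocrine marker called higher, control replicate 1 alone of the controls met the filter. The same held for Pdgfrb and Cdh5, the mesenchymal and endothelial markers called higher. These calls of Guca2b, Retnlb, Gip, Pdgfrb and Cdh5 are therefore no independent sign of a change. The part of cell makeup in the changes of the xenobiotic genes was not tested.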

How the data were processed

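ATAC-seq reads of 38 bp from 6 libraries were used, 3 per group. The first deposited table holds unnormalised counts of the authors for 55056 windows, each 200 bp wide, 1 column per library. They also deposited a score table for 55050 of these centres. From its values, that score is the natural log of the count plus 1 in 2-kb windows, centred and scaled per library, so whole 2-kb counts could be recovered within 0.00661 of a whole number. Per the submitters' processing notes, MACS2 2.2.7, Picard, BWA 0.7.17, fastp 0.20.1, DESeq2 1.34.0 and the build mm10 (GRCm38) were part of the processing. The step done by each tool, the placing of windows and the treatment of duplicates were not given in the sources used here.

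Each window went to the protein-coding gene (RefSeq, GRCm38) with the nearest end within 50 kb, which kept 38494 windows (69.9%); centres lay at least 4003 bp apart, and no member window was tied. Counts were summed per gene. Gene sums and windows were each tested over the whole table with edgeR 4.0.16 in R 4.3.3 (filterByExpr, TMM scaling, quasi-likelihood test, Benjamini-Hochberg adjustment, threshold 0.05), RANKL against control, 3 libraries each. CPM of gene sums and windows uses TMM-scaled totals of the features that passed the filter. Family sums were given without a test. Values after ± are SE for log2 fold changes. Intervals and the worth of 3 counts cover counting error only, since reads are not independent molecules.

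Experiment numbers 1 to 3 occur in both groups in the labels. The deviations of same-numbered libraries from their group means had r = -0.034, 0.015 and -0.013 over 21618 windows, and the labels call them separate differentiation experiments. Whether the p-values hold beyond this single organoid line cannot be told, as all libraries share it.

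Alternatives were RLE size factors, DESeq2 1.42.0, no filter, a stricter filter of 10 counts, the replicate block, loess offsets from limma 3.58.1, thinning to equal depth, leaving out each library, windows within 1, 5 or 200 kb, the nearest gene body, 2-kb counts and, chosen after seeing the data, 2-kb counts with loess offsets. On simulated counts the window test called 90 of 100 windows changed 4-fold, 42 of 100 changed 2-fold and 9 of 19167 unchanged. The gene test called 98, 61 and 8 of 11961 in the same order. No other of the 21618 windows and 12465 genes simulated was changed. In the data 20.1% of tested windows and 15.3% of tested genes were called, so these rates need not hold there.

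Genes named were the called members, the highest member of each family, listed members of interest, members with a called window, and called genes of the lists of regulators and partner enzymes; others named, among them Cyp3a59, Cyp8b1, Ugt2b5, Gstp2 and the genes called in 2-kb counts, were chosen after their values were seen. The members and the lists were chosen with earlier results of these data known. Promoters were RefSeq GRCm38.p6 sequences and covered 153 members.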

Additional observations from a re-analysis of the deposited data

How the results depend on the processing

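Members called higher numbered 4 and lower 13. No filter gave 8 higher, and thinning to equal depth 1 higher and 7 lower. DESeq2 gave 6 lower and windows within 1 kb gave 5 lower, with 48 members tested. The 2-kb counts gave 16 higher and 22 lower, and with loess offsets 18 higher, where 140 were tested. Leaving out single libraries gave 1 to 7 higher and 7 to 15 lower; the fewest rises came without control replicate 2 and the fewest falls without RANKL replicate 3. Member windows called higher numbered 15 and lower 20. No filter gave 27 higher, thinning 2 higher and 3 lower, DESeq2 5 lower, 2-kb counts 24 higher and 38 lower, and 2-kb counts with loess offsets 23 higher. Leaving out single libraries gave 10 to 20 higher and 9 to 18 lower, with 9 lower without RANKL replicate 3 or control replicate 2. Filters, thinning and distance limits change the number of genes tested by construction; the cause of the other shifts was not tested.

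With the replicate block 4 members were higher and 10 lower, and 12 windows were higher and 14 lower. Beside those given with their results, the pairing changed no call of a named gene sum. Of 1343 values of named genes under the alternatives, 1182 kept their direction and side of the threshold, 123 lost a call, 37 gained one and 1 reversed, namely Abcc1 in 2-kb counts with loess offsets (log2 fold change 0.37, adjusted p = 0.04306). The median of all tested genes was 0.01 in 200-bp and 0.02 in 2-kb windows. RANKL libraries were the shallower ones on the whole, and 51 members with a window had too few counts to test.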

Other observations

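In the 2-kb counts, members that could be tested only at that width included Ugt3a1, called higher (log2 fold change 1.19, edgeR adjusted p = 0.04206, and 0.1737 with loess offsets), and Abcc9 (0.01917, and 0.07139 with loess offsets). For Ugt3a1, control replicate 1 alone of the controls met the filter on low counts, so its call is no independent sign of a change. Members tested at both widths but called at 2 kb alone included Sult1c1 (0.93), Abcb5 (0.51) and Abcb9 (0.34), higher with RANKL, and Cyp1b1 (-0.35), Cyp2b10 (-0.38), Cyp2c55 (-0.39), Gsto1 (-0.40), Abcc4 (-0.26) and Sult1c2 (-0.33), lower with RANKL. With loess offsets on the same 2-kb counts these 6 falls were not called, and Abcc4 had a log2 fold change of 0.02. Ugt1a1 was also not called with them (-0.16, edgeR adjusted p = 0.3044). The 3 rises were called with loess offsets too.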
